A study of Bos taurus with 8 samples.

Results

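Genes of the SNARE, synaptotagmin and exocytosis machinery were compared between the small and the large luteal cells (SLC and LLC) of the bovine corpus luteum. Members were all transcript clusters of the array whose only gene symbol belongs to the synaptotagmins (SYT), synaptotagmin-like proteins (SYTL), syntaxins (STX), syntaxin-binding proteins (STXBP), VAMP or SNAP proteins, complexins (CPLX), the exocyst (EXOC), or the UNC13 or RIMS proteins. This gave 73 members of 18087 symbols measured, with 1 cluster each. Where a symbol had more than 1 cluster, the cluster of highest mean over all arrays was used, which concerned only VAMP7.

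The samples were 4 SLC and 4 LLC preparations of lactating Holstein cows with a mature, mid-cycle corpus luteum after synchronization with the prostaglandin analogue cloprostenol, and both cell types share this treatment. Cells were freed with collagenase, enriched on Percoll, stained with a Hoechst dye and sorted by FACS. For each preparation, 1 Affymetrix array of the Bovine Gene ST type was read. The labels call the 4 samples of a type biological replicates, and the sources used here do not say which samples came from the same cow, so the p-values measure the spread between these samples. All values are log2 signals, and differences are LLC minus SLC.

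The roles of the genes below are those known from mammals in general, mostly from rodents and human cells. Exocytosis is the fusion of a vesicle with the cell membrane, by which luteal cells release stored peptides such as oxytocin. A vesicle is first tethered by the exocyst, then docked and primed by RIMS and UNC13 proteins, and fused when a VAMP on the vesicle zips up with a syntaxin and a SNAP on the target membrane. Synaptotagmins sense calcium at this step, complexins tune it, and syntaxin-binding proteins guide or block the assembly. LLC are the luteal cells known for oxytocin granules, while steroids are thought to leave cells by diffusion.

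A total of 16 of the 73 members differed between the cell types, 10 higher in LLC and 6 higher in SLC. A difference was called where the limma p, adjusted by Benjamini-Hochberg over all 24415 clusters, lay under 0.05. The members called were 21.9% of the list, against 19.8% of all clusters and 22.7% of the symbols with 1 cluster each. The share was near the background. By direction it was 13.7% higher in LLC, against 9.64% of all clusters and 11.1% of symbols. In SLC it was 8.22%, against 10.2% and 11.7%. The DEG filter of the study, which also asks for a fold difference above 2, was passed by SYT17, UNC13B and VAMP2 in LLC and by SYTL2 and STX11 in SLC. These 5 members were 6.85% of the list, where 5.46% of all clusters passed, 2.39% in LLC and 3.07% in SLC. Of symbols 6.54% passed. Without LLC replicate 4, the count in LLC was 5, with EXOC8 and VAMP7, and without LLC replicate 3 the count in SLC was 1.

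The median difference over the members was 0.02, beside 0.01 over all clusters. The median size of the difference, whatever its sign, was 0.18 for both, and 0.20 over symbols. In 15 members the signals of SLC and LLC did not overlap on any array. This is 20.5% of the list, against 22.4% of all clusters and 25.5% of symbols. Of the 57 members not called, 56 had a 95% interval of the difference within a fold of 2 either way, the exception being SYT1. The call rate, the median and the separation of the list thus lay near those of the array as a whole, and the results are those of single members.

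**Figure D1:**
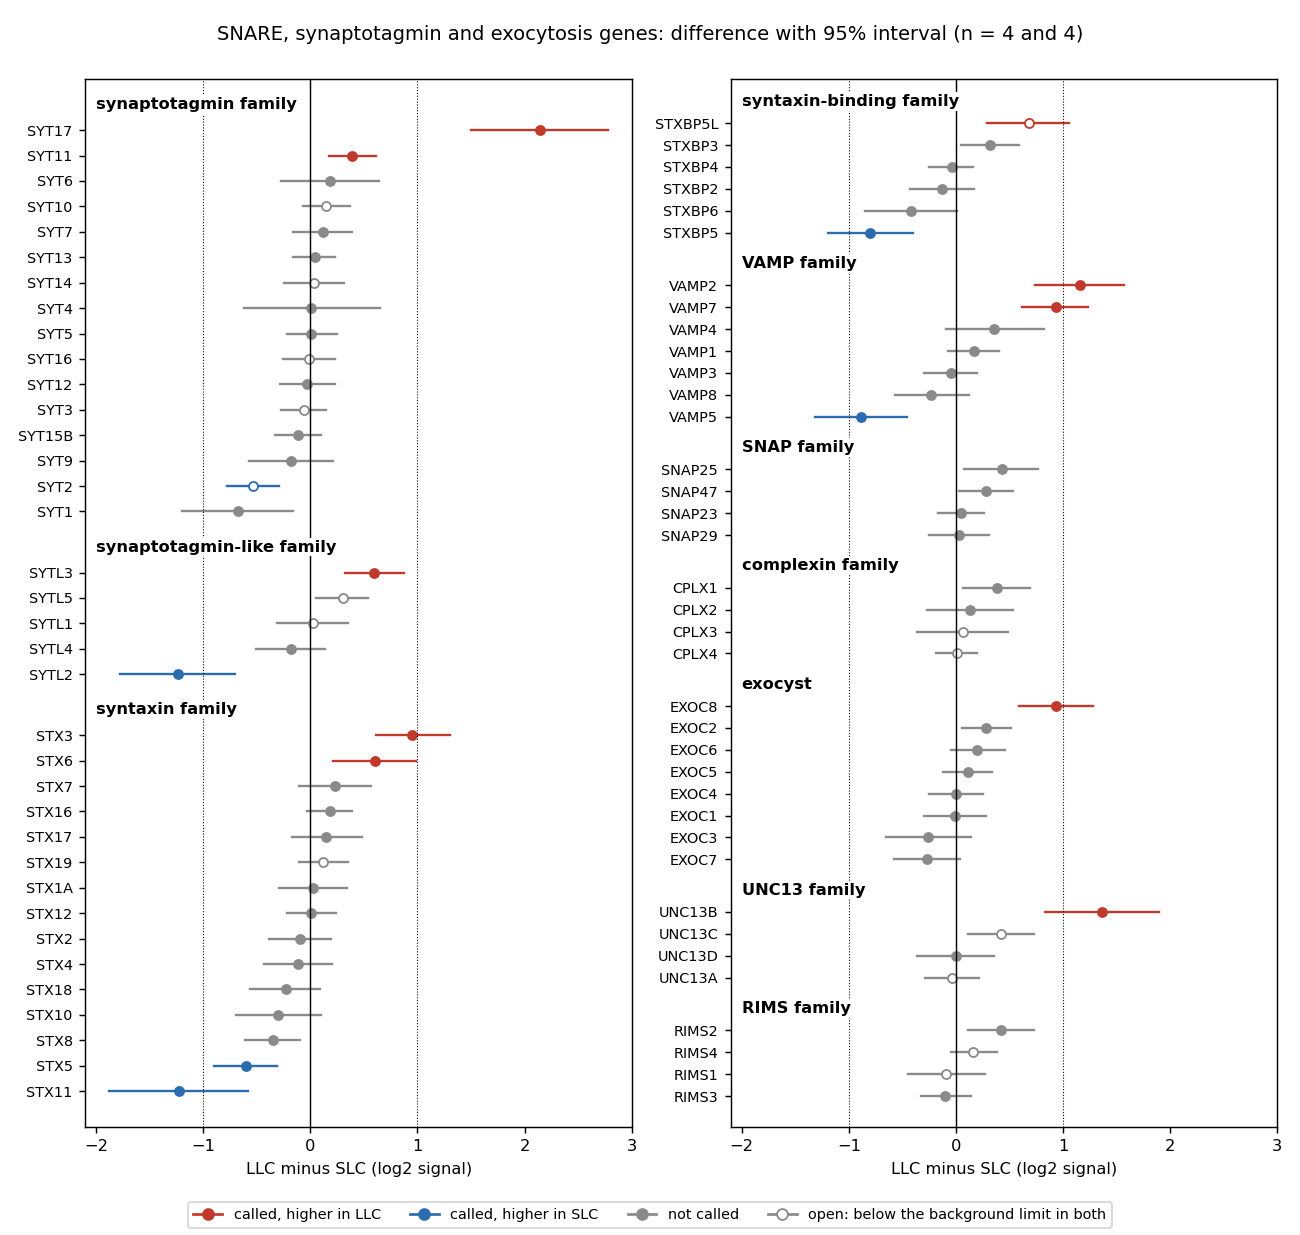
Difference in log2 signal, LLC minus SLC, of the 73 members by family. Points are the differences, bars the 95% intervals (n = 4 and 4), dotted lines a fold of 2, red and blue the 10 and 6 called members, and open points members below the background limit in both cell types. The called members are spread over 7 of the 10 families.

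As a background limit, the 95th percentile of 711 olfactory receptor genes was taken, which was 2.27 in SLC and 2.35 in LLC. By this limit 58 members were above background in both cell types and 15 in neither. All 8 exocyst subunits, 7 VAMP and 4 SNAP genes were above it, as were 14 of 15 syntaxins. Of 16 synaptotagmins 11 were above it, and of the complexins, UNC13 and RIMS genes 2 of 4 each. Among the members above the limit 14 of 58 were called, or 24.1%. Of all clusters and symbols above it in at least 1 cell type, 28.7% and 30.7% were. Those symbols numbered 13012, with 12309 above the limit in both cell types, so these shares include some features above it in 1 cell type only. The other 2 called members, SYT2 and STXBP5L, were below the limit in both cell types, so no fold is given for them.

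The sorted samples carried the markers of their labels. All 5 LLC and granulosa lineage markers, OXT among them, were higher in LLC, and 3 of 4 SLC and theca lineage markers were higher in SLC, CYP17A1 being the other (difference -0.04, SE 0.43). Markers of other cells were on the SLC side. This held for 8 of 8 macrophage markers (summed linear signal 487 to 656 in SLC and 96.7 to 140 in LLC), 7 of 10 endothelial markers (1050 to 1710 and 268 to 818) and 5 of 7 fibroblast and pericyte markers (6740 to 8360 and 2170 to 4040). Of 10 lymphocyte and NK cell markers 1 was higher in SLC (39.8 to 48.2 and 37.4 to 41.2), and CD3D, CD2, CD8A, PRF1, GZMA, CD79A and MS4A1 were below the background limit. Of 8 granulocyte, mast cell and platelet markers 1 was higher in SLC (229 to 527 and 108 to 395), with CPA3, MS4A2, GP9, PF4 and CSF3R below the limit. Most of this sum was KIT (mean log2 signal 8.37 in SLC and 7.15 in LLC), which was not called. Of 9 neuron and Schwann cell markers none was called (117 to 170 and 165 to 179), and 1 had an unadjusted p under 0.05. Most of that sum was S100B (6.75 and 7.05). In such samples, fewer cells of a type and less RNA per cell cannot be told apart.

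Among the VAMP genes, which encode the SNAREs carried by vesicles, VAMP2 and VAMP7 were higher in LLC and VAMP5 was higher in SLC. VAMP2, the main VAMP of synaptic vesicles and of many hormone granules, had a signal of 4.96, 4.79, 4.35 and 4.95 on SLC replicates 1 to 4 and of 6.36, 5.62, 5.94 and 5.76 on LLC replicates 1 to 4. All LLC arrays lay above all SLC arrays. The fold difference was 2.23 (log2 1.16, SE 0.19, limma adjusted p = 0.00231).

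VAMP7, which serves fusion of late endosomes and lysosomes with other membranes, was very even in SLC, at 6.73, 6.85, 6.80 and 6.74, and had 7.86, 7.97, 7.65 and 7.34 in LLC. The groups did not overlap, with LLC replicate 4 the lowest of its group. The difference was 0.93 (SE 0.14, adjusted p = 0.00154), and above a fold of 2 without LLC replicate 4. A further VAMP7 cluster gave 5.79 in SLC and 6.31 in LLC, a difference of 0.53 (SE 0.11, adjusted p = 0.00947). The direction was the same on both clusters, at unequal size.

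VAMP5, first described in muscle cells, had 5.30, 5.25, 4.91 and 5.42 in SLC and 3.93, 4.62, 4.06 and 4.70 in LLC. It was 1.86-fold higher in SLC (log2 -0.89, SE 0.19, adjusted p = 0.00954), and above 2-fold without LLC replicate 4. No array of LLC reached the lowest SLC array. The 4 other members of the family were not called. VAMP3, the widely expressed VAMP of recycling vesicles, was at 6.74 ± 0.12 (SD, n = 4) in SLC and 6.69 ± 0.16 in LLC, with an interval of -0.30 to 0.20. VAMP2 and VAMP3 are close relatives, and their intervals did not meet. VAMP8, of secretory granules and late endosomes, differed by -0.23 (interval -0.57 to 0.12), VAMP4, of the trans-Golgi network, by 0.36 (-0.09 to 0.82) and VAMP1 by 0.17 (-0.07 to 0.40).

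**Figure D2:**
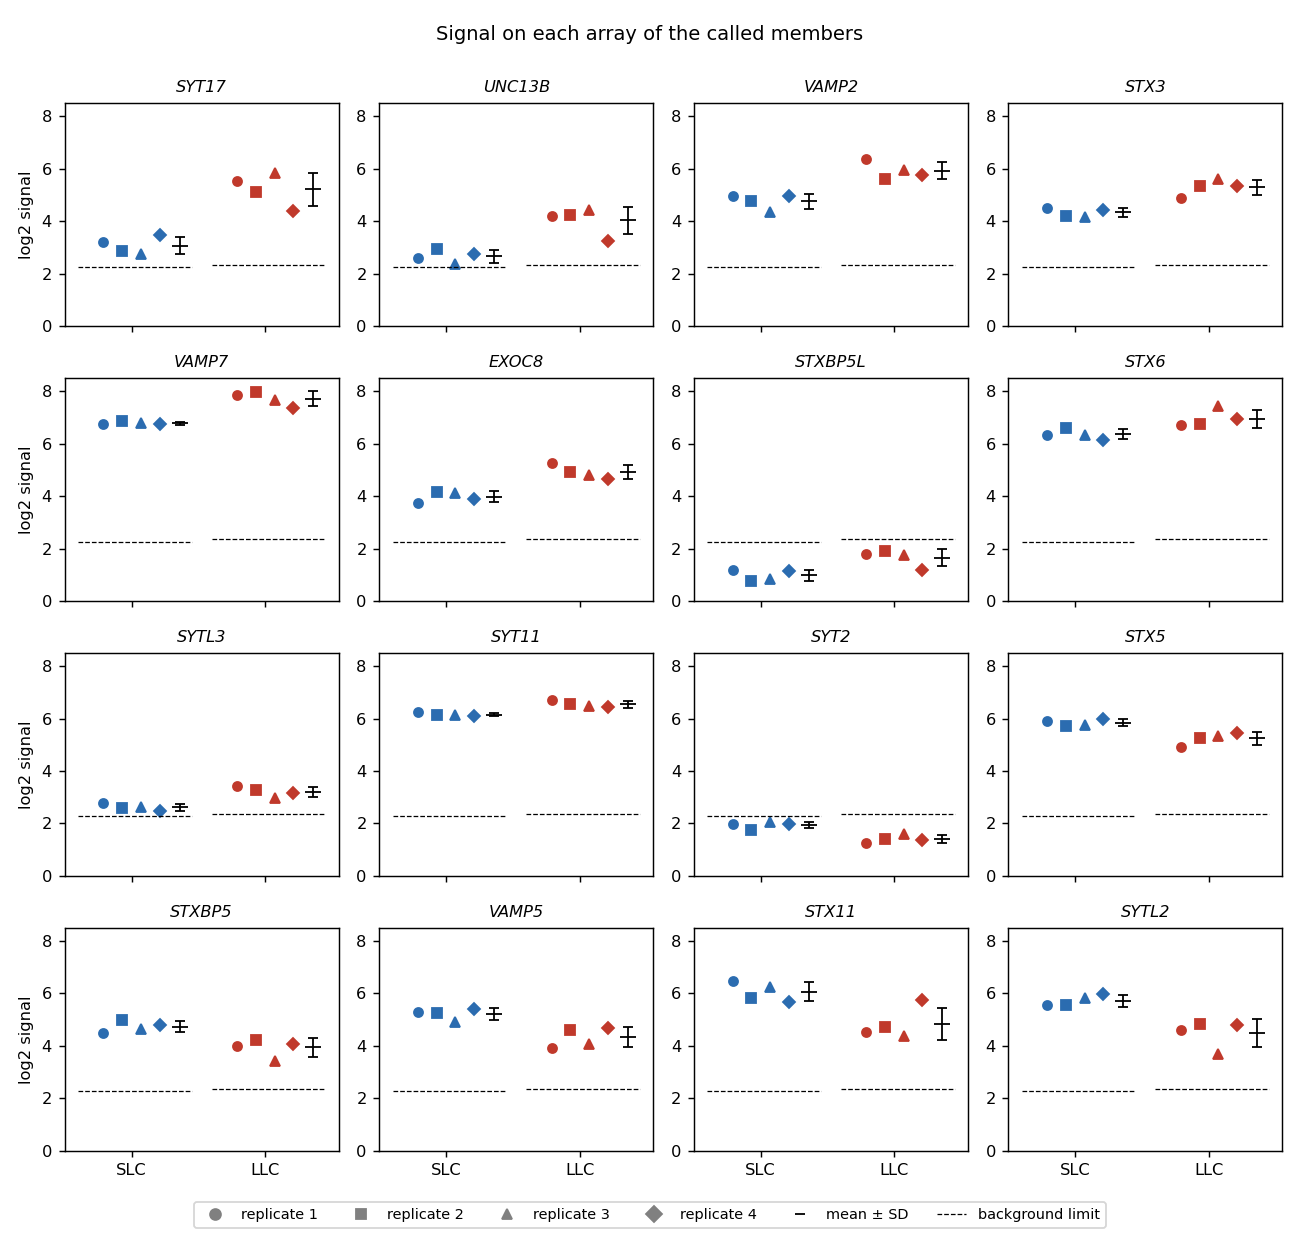
Log2 signal on each of the 8 arrays for the 16 called members, ordered by their difference. Symbols give the replicate number, black marks the mean and SD (n = 4), and dashed lines the background limit of each cell type. SYT2 and STXBP5L lie below the limit on all arrays, and STX11 and STXBP5L are the only panels in which the cell types overlap or meet.

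The syntaxins, SNAREs of the target membrane, were split. Of 15 members STX3 and STX6 were higher in LLC, and STX11 and STX5 were higher in SLC. STX3, a syntaxin of the cell membrane known for apical transport and granule release, had 4.52, 4.21, 4.18 and 4.44 in SLC and 4.89, 5.33, 5.60 and 5.35 in LLC. The cell types were separate, and LLC replicate 1 lay nearest to SLC. The difference was 0.95 (SE 0.16, adjusted p = 0.00244), short of a fold of 2, which it passed without LLC replicate 1 or SLC replicate 1.

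STX6, of the trans-Golgi network and endosomes, was at 6.32, 6.61, 6.34 and 6.14 in SLC and at 6.71, 6.73, 7.44 and 6.93 in LLC. The lower LLC arrays lay close above the highest SLC array. The difference of 0.60 (SE 0.17, adjusted p = 0.0351) shrank to 0.44 on leaving out LLC replicate 3. The call was lost when LLC replicate 3 or 4 or SLC replicate 1, 3 or 4 was left out. Over all alternatives the adjusted p ranged from 0.0247 to 0.104.

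STX5, which drives fusion between endoplasmic reticulum and Golgi, had 5.91, 5.71, 5.76 and 5.99 in SLC and 4.90, 5.25, 5.35 and 5.45 in LLC. It was higher in SLC on every array, by 1.52-fold (log2 -0.60, SE 0.13, adjusted p = 0.0110). STX11, known for granule release in lymphocytes and also made in macrophages, had 6.49, 5.82, 6.26 and 5.69 in SLC and 4.52, 4.71, 4.38 and 5.74 in LLC. LLC replicate 4 overlapped with SLC, whereas LLC replicates 1 to 3 lay below. On average STX11 was 2.34-fold higher in SLC (log2 -1.23, SE 0.29, adjusted p = 0.0153).

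Macrophage markers, like STX11, were higher in SLC. Relative to SLC, their mean was between -2.52 and -1.96 on LLC replicates 1 to 3 and -2.46 on replicate 4. The genes that act with STX11 in lymphocyte granule release, UNC13D (difference 0.00, interval -0.36 to 0.36) and STXBP2 (-0.13, -0.43 to 0.17), were not called. UNC13D was close to the background limit, at 2.38 in both cell types. The part of macrophages in the difference of STX11 was not tested.

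The remaining 11 syntaxins had differences with intervals between -0.69 and 0.57. These include STX4, the common syntaxin of the cell membrane (5.60 ± 0.12 in SLC, 5.48 ± 0.27 in LLC, difference -0.12), STX7 and STX8 of late endosomes (0.23 and -0.35), and STX12 of recycling endosomes (0.01). STX8 fell short of the threshold (adjusted p = 0.0582), and was called without LLC replicate 3, as STX10 was without LLC replicate 4. STX1A, the neuronal syntaxin, was near background at 2.84 ± 0.20 and 2.87 ± 0.21.

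None of the 4 SNAP genes, partners of the syntaxins on the target membrane, was called, while 2 of them had an unadjusted p under 0.05. SNAP23, found in most cells, was at 6.84 ± 0.04 (SD, n = 4) in SLC and 6.89 ± 0.12 in LLC, with an interval of -0.17 to 0.26. SNAP25, its counterpart of neurons and endocrine cells, was at 3.23 ± 0.27 and 3.66 ± 0.19, a difference of 0.43 (SE 0.15, adjusted p = 0.0828). SNAP29 differed by 0.03 and SNAP47 by 0.28, the latter called without LLC replicate 4. For SNAP23 a fold of 2 between the cell types lay outside the interval.

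Of the 6 syntaxin-binding genes, STXBP5 was higher in SLC. It encodes tomosyn, which occupies syntaxin and so limits fusion. The signal was 4.48, 4.99, 4.65 and 4.81 in SLC and 3.99, 4.23, 3.44 and 4.09 in LLC, with no overlap. STXBP5 was thus 1.74-fold higher in SLC (log2 -0.80, SE 0.18, adjusted p = 0.0119). Its paralog STXBP5L had 1.18, 0.75, 0.83 and 1.16 in SLC and 1.80, 1.89, 1.75 and 1.18 in LLC, all below background. Its call (adjusted p = 0.0211) was lost when LLC replicate 1, 2 or 3 or SLC replicate 2 or 3 was left out (adjusted p from 0.00247 to 0.0771 over all alternatives). STXBP3, which pairs with STX4 in insulin-driven transport, differed by 0.32 (interval 0.05 to 0.59, adjusted p = 0.0959), STXBP6 by -0.42 (-0.85 to 0.01) and STXBP4 by -0.04.

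SYT17 had the largest difference of the 73 members. It is an atypical synaptotagmin that does not bind calcium and lies at the Golgi and on recycling vesicles. The signal was 3.20, 2.88, 2.75 and 3.46 in SLC and 5.52, 5.10, 5.85 and 4.38 in LLC. Each LLC array was above each SLC array, with LLC replicate 4 nearest to them. The fold difference was 4.41 (log2 2.14, SE 0.29, adjusted p = 0.00101). Left out one at a time, the arrays gave differences from 1.93 to 2.42.

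SYT11, another synaptotagmin without calcium sensing, was higher in LLC by a small and even amount. It had 6.25, 6.15, 6.13 and 6.08 in SLC and 6.72, 6.54, 6.48 and 6.43 in LLC, with no overlap. SYT11 exceeded its SLC level 1.31-fold (log2 0.39, SE 0.10, adjusted p = 0.0210), and the call was lost without SLC replicate 2, 3 or 4 (adjusted p from 0.0161 to 0.0633 over all alternatives). SYT2, a fast calcium sensor of neurons, was called higher in SLC (adjusted p = 0.00738) at signals below background, from 1.77 to 2.05 in SLC and from 1.27 to 1.60 in LLC.

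The calcium sensors of hormone granules in other endocrine cells gave no call. SYT7 was at 3.90 ± 0.15 in SLC and 4.01 ± 0.18 in LLC (interval -0.16 to 0.39), and SYT9 at 3.29 ± 0.25 and 3.11 ± 0.30 (-0.57 to 0.21). SYT1, the sensor of synaptic vesicles, was at 4.12 ± 0.34 and 3.45 ± 0.44, a difference of -0.68 (interval -1.20 to -0.16, adjusted p = 0.0692), and was called without LLC replicate 3. SYT4, which is found on granules of oxytocin neurons in rodents, had a clear signal and the widest spread of the family in SLC, with 6.82 ± 0.57 in SLC and 6.83 ± 0.42 in LLC (interval -0.62 to 0.65). In all, 13 of 16 synaptotagmins were not called.

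Synaptotagmin-like proteins link the GTPase Rab27 on a granule to the cell membrane. SYTL2 was higher in SLC and SYTL3 was higher in LLC. SYTL2 had 5.54, 5.54, 5.82 and 5.99 in SLC and 4.62, 4.82, 3.69 and 4.80 in LLC. The groups were apart, and LLC replicate 3 was far below the rest of its group. The fold difference was 2.36 (log2 -1.24, SE 0.24, adjusted p = 0.00578), and the log2 difference was -0.98 without LLC replicate 3, so that SYTL2 no longer passed the fold filter. Endothelial markers were also lowest on that array, with a mean relative to SLC of -2.09, against -0.98 to -0.76 on LLC replicates 1, 2 and 4. Fibroblast and pericyte markers were at -2.03 there and at -1.56 to -0.84 on those 3 arrays, and macrophage markers at -2.52 and at -2.46 to -1.96. STXBP5 was lowest on the same array, at 3.44. On SLC replicates 1 to 4 the endothelial mean was -0.20, 0.25, -0.38 and 0.32, an order unlike that of SYTL2 on these arrays. The part of endothelial cells, fibroblasts, pericytes and macrophages in the differences of SYTL2 and STXBP5 was not tested.

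SYTL3 had 2.79, 2.58, 2.63 and 2.47 in SLC and 3.43, 3.27, 2.97 and 3.18 in LLC, not far above background. The cell types did not overlap, and the fold difference was 1.51 (log2 0.59, SE 0.12, adjusted p = 0.00775). SYTL4, or granuphilin, which docks insulin granules in pancreatic beta cells, was not called (4.50 ± 0.14 in SLC, 4.32 ± 0.28 in LLC, interval -0.51 to 0.14). SYTL5 and SYTL1 were below background, and the arrays of SYTL5 were separated without a call (adjusted p = 0.0899).

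The exocyst, the complex of 8 subunits that tethers vesicles to the cell membrane, differed in 1 subunit. EXOC8 was higher in LLC, at 5.27, 4.92, 4.81 and 4.64 against 3.73, 4.16, 4.12 and 3.90 in SLC. The arrays of the cell types were separate. EXOC8 was 1.91-fold higher (log2 0.93, SE 0.15, adjusted p = 0.00257), and above 2 without LLC replicate 4. The other 7 subunits had differences from -0.27 for EXOC7 to 0.28 for EXOC2, with intervals between -0.65 and 0.51. EXOC4 was at 6.50 ± 0.06 and 6.50 ± 0.19, and EXOC5 at 6.60 ± 0.09 and 6.71 ± 0.14. EXOC7, which binds lipids of the cell membrane, was called as higher in SLC when LLC replicate 3 was left out.

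Among the priming factors, UNC13B was higher in LLC. UNC13 proteins open syntaxin for assembly, and UNC13B serves this role outside the brain as well. The signal was 2.60, 2.94, 2.36 and 2.76 in SLC, close to background, and 4.21, 4.23, 4.43 and 3.25 in LLC. Each LLC array was above all SLC arrays, although LLC replicate 4 lay far below the other LLC arrays. The fold difference was 2.58 (log2 1.36, SE 0.24, adjusted p = 0.00371), and the log2 difference reached 1.62 without LLC replicate 4. UNC13C, below background, differed by 0.42 (adjusted p = 0.0583) and was called without LLC replicate 4 or SLC replicate 2. UNC13A was below background too.

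No complexin or RIMS gene was called, and 1 of each family had an unadjusted p under 0.05. CPLX1 differed by 0.38 (interval 0.07 to 0.69, adjusted p = 0.0886) and CPLX2 by 0.13 (-0.27 to 0.53), both near background. RIMS2, a scaffold of release sites in endocrine cells, was at 2.53 ± 0.20 in SLC and 2.95 ± 0.20 in LLC (difference 0.42, adjusted p = 0.0577), and was called without LLC replicate 2 or SLC replicate 2. RIMS3 was at 4.34 ± 0.15 and 4.24 ± 0.08, with an interval of -0.33 to 0.14.

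**Figure D3:**
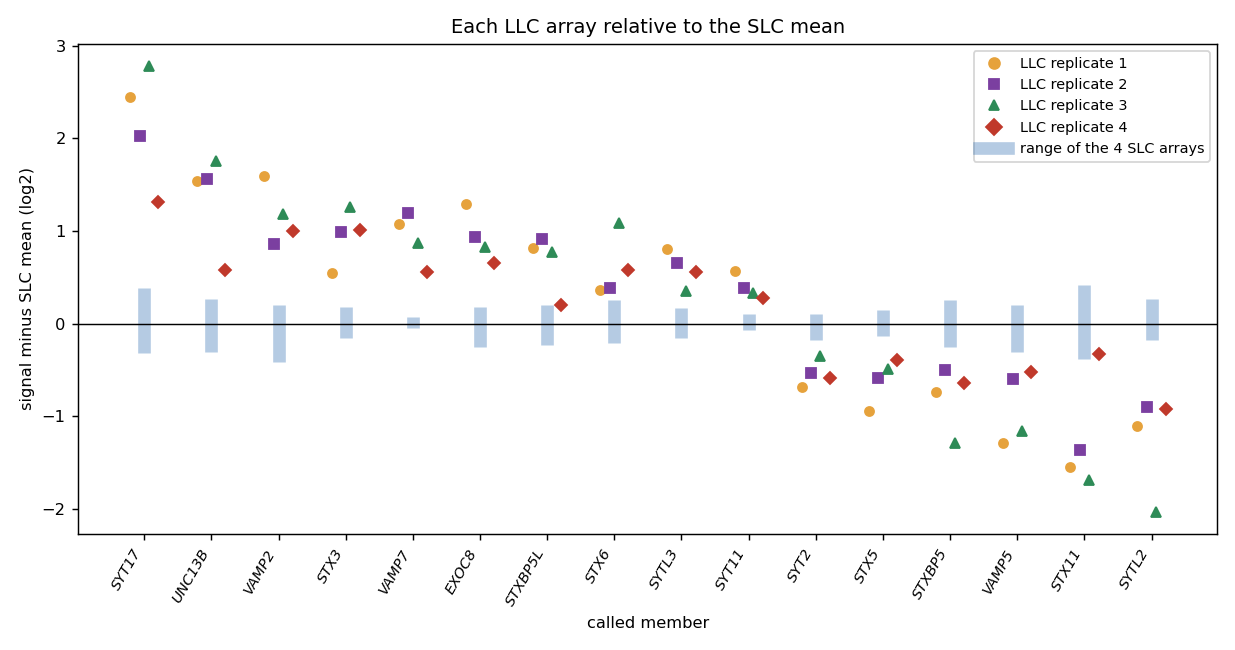
Log2 signal of each LLC array minus the SLC mean for the 16 called members, with blue bars for the range of the 4 SLC arrays. LLC replicate 4 (red) is the LLC array nearest to the SLC mean in 9 of 16 members and the farthest in none.

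The 4 LLC arrays did not contribute alike. LLC replicate 4 was the LLC array nearest to the SLC mean in 9 of the 16 called members, and the other LLC arrays in 2 or 3 each. Averaged over the 10 members higher in LLC, LLC replicate 4 exceeded the SLC mean by 0.67 and LLC replicates 1 to 3 by 0.99 to 1.12. For the 6 members higher in SLC the values were -0.57 and -1.17 to -0.75. The SLC arrays stayed within -0.12 to 0.06 for both groups of genes. Replicates of LLC also varied more, with a larger SD than in SLC for 53 of the 73 members (median SD 0.20 against 0.14) and for 12082 of 18087 symbols in all. For the 5 LLC and granulosa lineage markers, the mean exceeded SLC by 3.17 on LLC replicate 4 and by 3.75 to 4.02 on the others. What sets this array apart was not tested.

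Other genes of the secretory pathway were counted from lists. Docking and priming factors with the Rab3 and Rab27 systems had 8 of 28 genes higher in LLC and 1 higher in SLC (median difference 0.07). This was 28.6% and 3.57% of the list, against 9.64% and 10.2% of all clusters and 11.1% and 11.7% of the 18087 symbols. Of its 26 genes above the background limit in at least 1 cell type, 34.6% were called. Of all clusters and symbols chosen in the same way, 28.7% and 30.7% were. ERC2 and PCLO, both called, were among the 26 through LLC alone, and 24 genes were above the limit in both cell types. A choice that rests on the difference itself can raise the share, so nothing is drawn from it. Without LLC replicate 3 or LLC replicate 4, 2 genes were higher in SLC. The count in LLC was 7 without LLC replicate 1, 2 or 3, without SLC replicate 1, 2 or 3, and with the replicate number as a block. In the other settings it ranged from 6 without moderation to 9, as with quantile normalization. RAB3IP, an exchange factor for Rab GTPases, had 2.16, 2.72, 2.65 and 2.33 in SLC and 5.79, 5.26, 5.27 and 4.27 in LLC. It was 6.42-fold higher in LLC (log2 2.68, SE 0.28, adjusted p = 0.000292). RAB27A, the GTPase that synaptotagmin-like proteins bind, had 7.54, 7.65, 7.52 and 7.52 in SLC and 8.61, 8.30, 8.66 and 8.33 in LLC, a log2 difference of 0.92 (SE 0.11, adjusted p = 0.000662). Both genes were separate between the cell types.

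ERC2, a scaffold of the release site that binds RIMS proteins, was below background in SLC, from 1.97 to 2.12, and from 3.09 to 4.99 in LLC. With SLC held at the background limit its difference was 1.74. PCLO, of the release site scaffold piccolo, was named after its values had been seen. Its SLC mean of 2.26 was below the background limit, so its difference is approximate. It was at 2.04, 2.28, 2.79 and 1.92 in SLC and at 5.90, 6.63, 4.63 and 3.76 in LLC, a wide spread in LLC with LLC replicate 4 the lowest. The log2 difference was 2.97 (SE 0.53, adjusted p = 0.00374), or 2.96 with SLC held at the limit. The other genes higher in LLC were CADPS2, which primes dense-core granules (1.33), RAB3A (0.80), RAB27B (0.63) and RAB3GAP1 (0.44). For RAB3A the arrays of the cell types overlapped (limma adjusted p = 0.0363). RALB, a GTPase that engages the exocyst, was higher in SLC (-0.91, SE 0.11).

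The list of NSF, its adaptors and other SM proteins, which take SNARE complexes apart or guide them, held 9 genes. Of these, 3 were higher in LLC and none in SLC, with a median of 0.01. Without LLC replicate 4 there were 4 in LLC and 1 in SLC. On leaving out any other single array, the count in LLC was 2, as it was with the replicate number as a block. The 3 genes were 33.3% of the list, against 9.64% of all clusters and 11.1% of symbols. Of the 8 list genes above the background limit, 37.5% were called. Of all clusters and symbols above it in at least 1 cell type, 28.7% and 30.7% were. The 3 genes called were SCFD1 (0.70, SE 0.13), which acts with STX5 at the Golgi, VPS45 (0.47, SE 0.11) and the adaptor gene NAPG (0.34, SE 0.10). NSF itself differed by 0.44 (interval 0.11 to 0.77, adjusted p = 0.0673). None of 12 SNAREs of the endoplasmic reticulum, Golgi and endosomes outside the member families was called, 2 of them having an unadjusted p under 0.05 (median 0.06, intervals between -0.55 and 0.63), and 1 was called higher in LLC without LLC replicate 2. STX5 was higher in SLC and its partner SCFD1 higher in LLC.

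The granule cargo and its processing enzymes were split, with 2 of 10 genes higher in LLC and 3 higher in SLC (median -0.09). Of all clusters 9.64% and 10.2% were, and of symbols 11.1% and 11.7%. Of the 7 list genes above the background limit in at least 1 cell type, 71.4% were called. Of all clusters and symbols chosen in the same way, 28.7% and 30.7% were. The count in LLC was 1 without SLC replicate 1 or SLC replicate 4. In SLC the count was 2 without LLC replicate 2 or 3, without SLC replicate 1, 2 or 3, and with the replicate number as a block. OXT, the oxytocin precursor gene, was higher in LLC (3.68), as was PCSK1, a convertase that cleaves prohormones (0.83). SCG2, a granin of dense-core granules (-3.24), CPE, which trims prohormones (-1.81), and PAM, which amidates peptides (-0.39), were higher in SLC.

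**Figure D4:**
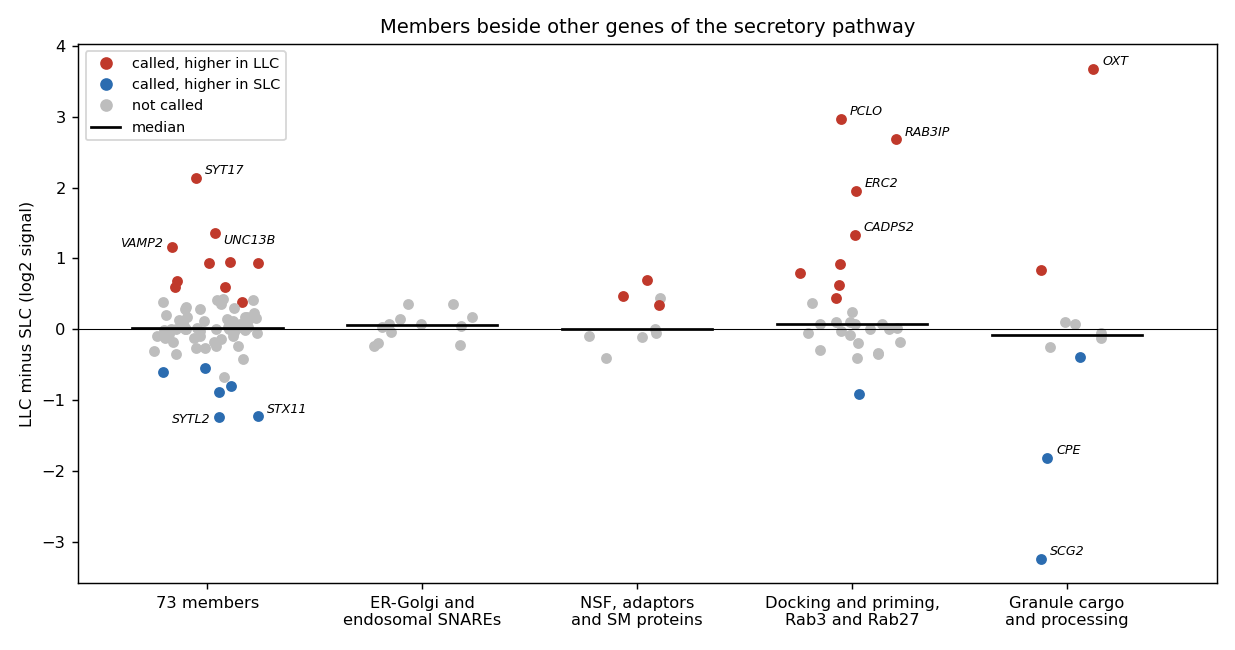
Difference in log2 signal, LLC minus SLC, of the 73 members and of the genes of 4 other lists of the secretory pathway. Each point is a gene, red and blue are called genes, and black lines are medians, which lie between -0.09 and 0.07 for all 5 sets. The docking and priming list has 8 called genes on the LLC side and 1 on the SLC side.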

How the data were processed

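The deposited values were log2 signals that the authors had made from the CEL files with RMA (version not given in the sources used here) in Transcriptome Analysis Console 4.0, and were used as deposited. RMA evens out the overall level of the arrays, so a shift of most genes in one cell type would not be seen. The number of arrays limits the precision. Symbols came from the platform annotation, and 72 of 73 members were matched by gene number to RefSeq of ARS-UCD2.0, with the same symbol. Sequences were not analysed here.

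The 8 arrays were compared over 24415 clusters by limma 3.58.1 (R 4.3.3; lmFit, then eBayes), without a replicate block. On simulated data of 24415 clusters, 12 of 50 were called at a fold of 1.5, 40 of 50 at 2, 49 of 50 at 3 and 50 of 50 at 4. In the simulation 24215 clusters had no difference, whereas 4834 clusters were called in the data. The adjustment is stricter where fewer clusters differ, so these shares do not carry over to the data. The members and lists were chosen with earlier results of these data known. Arrays are given singly for members with a call (the rule asked for those past the DEG filter), other members by rule (the 3 highest means of a family, or paralogs) or for their role, and list genes up to 4 by the size of the moderated t, with others named after their values were seen. Alternatives were quantile normalization, subtraction of array medians, a filter on dim clusters at the 40th percentile, members near background left out, a replicate block, leaving out each array, a trend with robust variance, array weights, no moderation, adjustment over clusters with a symbol and averaging the clusters of each symbol.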

Additional observations from a re-analysis of the deposited data

Results flagged for a closer look

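Among 146 groups of 4 arrays (73 members in each cell type), 4 held 1 array that stood apart from the rest, and by chance about 1 in 20 would. None belonged to a called member. STX8 was at 7.68 in LLC replicate 3 and at 7.27 to 7.33 in the other LLC arrays. STXBP2 was at 4.77 in LLC replicate 1 and at 5.10 to 5.14 in the others. SYTL1, below background, was at 2.50 in LLC replicate 3 and at 2.10 to 2.14 in the others. CPLX4, below background, was at 1.39 in SLC replicate 1 and at 1.31 to 1.32 in the others.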

How the results depend on the processing

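No called member changed direction under the 17 refits, and 10 of the 16 kept their call in all in which they were tested: EXOC8, STX3, STX5, SYT17, SYT2, SYTL2, SYTL3, UNC13B, VAMP2 and VAMP7. Without moderation of the variance, the count higher in SLC fell from 6 to 3 and that past the DEG filter from 2 to 1, and the calls of STX11, STX6, STXBP5, STXBP5L and VAMP5 were lost, with no member gained. Leaving out 1 array at a time, the members past the DEG filter numbered 3 to 5 in LLC (5 without LLC replicate 4) and 1 to 3 in SLC (1 without LLC replicate 3). All other counts of members stayed within 1.5 times, and the median moved by less than its SD between LLC arrays (0.0573). STX8, RIMS2 and SYT1 gained a call with dim clusters left out, and STX8 also with array weights and with an intensity trend and robust variance. With the replicate number as a block, STX6 lost its call (adjusted p = 0.0532) and SYT1 gained one (adjusted p = 0.0104), and 4336 instead of 4834 clusters were called. The deviations of equal numbers correlated at -0.132, -0.066, 0.167 and 0.011, and those of unequal numbers at -0.199 to 0.255. A weak effect of the cow could give such values too, so they cannot show whether equal numbers share a cow. For the lists, examined under these settings after the data had been seen, the SNAREs of the endoplasmic reticulum, Golgi and endosomes had 2 calls in LLC with quantile normalization and 1 with dim clusters left out, docking factors had 2 in SLC with array weights and with dim clusters left out, and granule cargo had 1 in LLC without moderation. The annotation can be old, and differences near background are approximate.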

Other observations

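VAMP5 and VAMP8 are next to each other among the protein-coding genes of ARS-UCD2.0, the only such pair of members. VAMP5 differed by -0.89 and VAMP8 by -0.23, and only VAMP5 was called. A cluster annotated to both CBLIF and STX3 was not used for STX3. It lay below background, at 1.78 in SLC and 1.65 in LLC.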
